A study of Mus musculus with 12 samples.

Results

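Immediate early genes are transcribed within minutes of a stimulus, from factors that are already present in the cell, and most of them encode transcription factors. Egr1 and Egr3 are zinc finger factors, Nr4a1 (also called Nur77) is an orphan nuclear receptor, Fos and Fosb are leucine zipper partners of Jun proteins in AP-1, and Atf3 is a leucine zipper factor of the stress response. In the vessel wall Egr1 is known for its induction by injury, shear stress and growth factors through ERK and the serum response factor, and Nr4a1 for its induction in smooth muscle cells, endothelium and macrophages. The genes described here are Egr1 and Nr4a1 together with those of Fos, Fosb, Jun, Junb, Atf3, Ier2, Egr2 and Egr3 that the expression table lists by symbol. Of the 10 genes named by that rule 6 were in the table of 3534 rows, and Jun, Junb, Ier2 and Egr2 were not analysed here.

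Aortic tissue of mice was sequenced in 4 groups, each deposited as 3 of the 12 samples. WT mice had the genotype WT and a normal diet; HFD and HAPN mice had the genotype WT and a high-fat diet; HSAPN mice carried an APPL1 knockdown and had the high-fat diet. The high-fat diet had 60% of its energy from fat and was given for 12 weeks, with the aim of inducing type 2 diabetes, and the normal diet was a standard control diet. The sources used here do not give what sets HAPN apart from HFD, how the knockdown was made, or the strain, age and sex of the mice. The files of HFD replicates 1 and 2 hold the same values throughout and enter as a single library, so that WT, HAPN and HSAPN have 3 libraries each and HFD has 2, or 11 in all. The labels do not tie replicates to separate animals, and the p-values below therefore reflect the spread between these samples, part or all of which may be technical. Values are FPKM as deposited (read counts divided by gene length and library size). The libraries had 15685000 to 17881000 reads, as recovered from the steps between low values.

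Libraries of 1 group differed in genes of neighbouring tissues. The 8 smooth muscle genes in the table (of 10 listed; none at 0 in any library) summed to 686 to 2831 FPKM in WT and 232 to 877 FPKM in the high-fat libraries. Of them 7 were tested, and all 7 had log2 differences below 0 (median -1.38; none called by limma, 5 at an unadjusted p under 0.05). Of all tested genes, 55.4% had a log2 difference below 0 between the high-fat libraries and WT, and 23.6% a limma unadjusted p under 0.05. The airway gene Bpifa1 ran from 2.81 to 10735 FPKM over all libraries, highest in WT replicate 2. Of blood genes, 7 erythrocyte genes of 8 listed summed to 400 to 3198 FPKM in WT and 1301 to 4878 FPKM in the high-fat libraries, and 8 platelet genes of 8 listed to 90.1 to 138 FPKM and 151 to 534 FPKM. All of these had log2 differences above 0 to WT, none called by limma, with 6 and 7 at an unadjusted p under 0.05. The lists that follow had sums that overlapped between WT and high-fat libraries, with no gene called by limma. Of 5 tested fibroblast genes 4 were below 0 (median -0.89, 3 at an unadjusted p under 0.05; sums of 173 to 185 FPKM in WT and 113 to 226 FPKM in the high-fat libraries). All 4 tested neuron or glia genes (median -1.12, 1 at an unadjusted p under 0.05; sums of 14.7 to 37.0 and 3.04 to 45.3 FPKM) and all 3 cardiac muscle genes (median -1.53, 0 at an unadjusted p under 0.05; sums of 48.3 to 310 and 7.79 to 389 FPKM) were below 0. Of 9 tested adipocyte genes 6 were below 0 (median -0.66), and all 3 macrophage genes were above 0 (median 0.32). The part of these tissues in the differences below was not tested. Defining genes of endothelium and B cells were not analysed here. In bulk tissue, fewer cells of a type and less RNA per cell cannot be told apart.

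Upstream sequence from RefSeq (GRCm38.p6) was matched for 4 of the 6, namely Nr4a1, Fos, Fosb and Atf3. Elements known from immediate early promoters were searched in the 250 bases before the RefSeq start, on both strands except for TATAAA, which was searched on the gene's strand. Those marked in the 3 windows printed are the CRE core TGACG (part of the element bound by CREB and ATF proteins), the EGR site GCGNGGGCG, the GC box GGGCGG and TATAAA, and the Atf3 window also held a MEF2 site. An EGR site can overlap a GC box, as it does in Nr4a1 and Fosb. The windows of Nr4a1, Fos and Fosb are shown because each holds a CRE core together with an EGR site or TATAAA. Capitals mark the matches, 5′ to 3′ on the gene's strand, and a match on the other strand shows as its reverse complement (CGTCA for the CRE core). The windows are chr15:101266596-101266845 (plus strand, inside the GENCODE span of Nr4a1, which has an earlier start), chr12:85473640-85473889 (plus strand) and chr7:19310046-19310295 (minus strand, 6 bases of it in a GENCODE exon of Fosb).
Nr4a1: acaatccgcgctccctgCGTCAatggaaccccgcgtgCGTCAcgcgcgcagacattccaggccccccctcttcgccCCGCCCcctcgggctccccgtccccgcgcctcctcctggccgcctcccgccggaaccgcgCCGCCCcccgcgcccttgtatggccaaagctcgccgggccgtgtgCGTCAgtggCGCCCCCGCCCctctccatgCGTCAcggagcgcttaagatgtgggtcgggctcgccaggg
Fos: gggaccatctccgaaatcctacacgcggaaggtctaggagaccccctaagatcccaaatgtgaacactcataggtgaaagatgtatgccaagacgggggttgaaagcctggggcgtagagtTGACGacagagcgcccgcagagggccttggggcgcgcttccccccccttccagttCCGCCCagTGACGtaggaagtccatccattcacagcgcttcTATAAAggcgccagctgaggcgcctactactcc
Fosb: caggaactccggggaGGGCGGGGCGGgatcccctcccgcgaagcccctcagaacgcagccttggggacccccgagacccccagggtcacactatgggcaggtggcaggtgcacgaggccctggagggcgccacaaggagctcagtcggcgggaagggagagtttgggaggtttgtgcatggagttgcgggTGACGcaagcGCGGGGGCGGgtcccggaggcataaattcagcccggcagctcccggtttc

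The Nr4a1 window held 4 CRE cores, of which the nearest ended 36 bases before the start, and 1 EGR site ending 52 bases before it. The Fos window held 2 CRE cores and a TATAAA from 33 to 28 bases before the start, and the Fosb window 1 CRE core and 1 EGR site. The Atf3 window held 1 CRE core and a match to the MEF2 site, which 0.508% of all windows hold. At least 1 CRE core was thus in all 4 windows, whereas 17.8% of all 32851 RefSeq windows of this length hold one. An EGR site was in 2 of the 4, against 4.7% of all windows, TATAAA in 1, against 7.59%, and a GC box in 4, against 32.7%. No CArG box, the element bound by serum response factor, was in the 4 windows, where 1.47% of all windows hold one. The full CRE TGACGTCA (1.55% of all windows), the AP-1 site TGANTCA (6.75%) and AAAGGTCA, the element of NR4A receptors (1.34%), had no match in them either. Sequence farther upstream was not searched, and no window of Egr1 or Egr3 was analysed here. The missing matches therefore do not show that these genes lack a CArG box or the other elements. The 3 windows printed are rich in G and C (58.4 to 74.4%, with a median of 52.4% over all windows), and a match is a description of letters, not a site shown to be bound.

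The 6 genes are protein coding (GENCODE M21 on GRCm38). Egr1 (ENSMUSG00000038418) lies on chromosome 18 from 34859823 to 34864984 and Egr3 (ENSMUSG00000033730) on chromosome 14 from 70077203 to 70082614. Nr4a1 (ENSMUSG00000023034) lies on chromosome 15 from 101254269 to 101274795, Fos (ENSMUSG00000021250) on chromosome 12 from 85473890 to 85477273, Fosb (ENSMUSG00000003545) on chromosome 7 from 19302696 to 19310051 and Atf3 (ENSMUSG00000026628) on chromosome 1 from 191170296 to 191218039.

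Egr1 was highest in the normal-diet aortas. In FPKM, Egr1 was 16.4, 30.9 and 11.4 in WT replicates 1 to 3, 7.88 and 5.73 in the libraries of HFD, 7.01, 4.12 and 5.33 in HAPN replicates 1 to 3 and 5.67, 6.39 and 4.94 in HSAPN replicates 1 to 3, and the same order is kept for the other genes. Every WT library lay above every high-fat library, and the 3 high-fat groups overlapped one another. In reads these levels were 871 to 2475 per WT library and 329 to 562 per high-fat library, so counting error was small beside the spread between libraries. The mean was 19.6 ± 10.1 FPKM in WT (SD, n = 3) and 5.88 ± 1.19 FPKM in the 8 high-fat libraries (SD, n = 8), 3.32-fold lower.

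That difference did not pass the threshold of the test across all genes. Each comparison was fitted with limma on log2(FPKM + 1) over the 1659 genes that reached 1 FPKM in at least 3 libraries, and a gene was called where its p, adjusted by Benjamini-Hochberg, was under 0.05. With HFD, HAPN and HSAPN weighed equally against WT, the log2 difference of Egr1 was -1.46 (SE 0.272, 95% interval -2.08 to -0.85, limma adjusted p = 0.103), the 4th smallest p among the 1659 genes. An exact permutation test of the 8 against the 3 libraries gave p = 0.00606 (two-sided), the smallest that its 165 arrangements allow, for a gene that was picked with its values known. In this comparison limma called 1 of the 1659 tested genes, or 0.0603%. With the high-fat libraries as 1 group the limma adjusted p of Egr1 was 0.0487 (log2 -1.49). Leaving out WT replicate 3 gave 0.00923 (log2 -1.77) and 244 called genes, 14.7% of those tested, while without WT replicate 2, the library with the most Egr1, the log2 difference was -1.09 and the limma adjusted p 0.510.

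**Figure D1:**
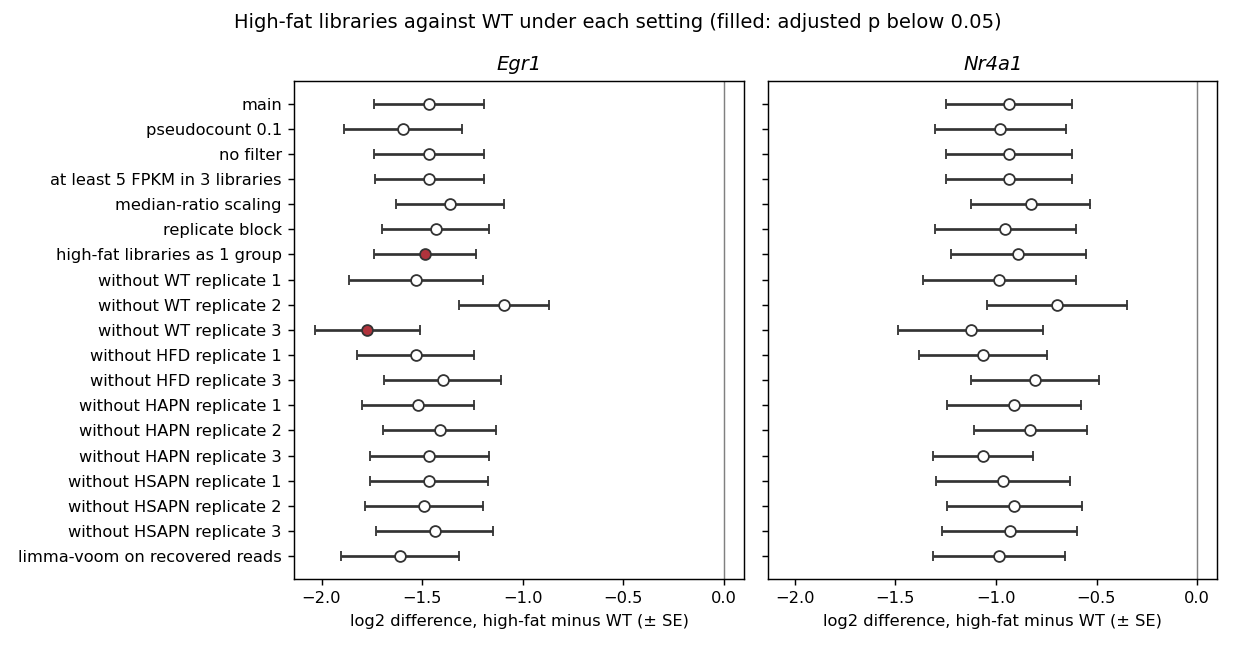
Log2 difference of Egr1 and Nr4a1 between the high-fat and WT libraries (x axis, log2(FPKM + 1) units, bars show the standard error) as reported (main) and under each alternative (y axis; limma-voom is on log2 counts and the pseudocount row on log2(FPKM + 0.1)); filled points had a limma adjusted p below 0.05. All points lie below 0, and only 2 for Egr1 are filled: the high-fat libraries as 1 group and the fit without WT replicate 3.

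Group by group against WT, the log2 differences of Egr1 were -1.30 for HFD (SE 0.365, limma adjusted p = 0.300), -1.58 for HAPN (SE 0.327, 0.0848) and -1.52 for HSAPN (SE 0.327, 0.168). These comparisons share the WT libraries. No gene was called in any of them (0% of tested genes), and 189, 368 and 360 genes had an unadjusted p under 0.05. Without WT replicate 3 Egr1 passed for HAPN (limma adjusted p = 0.0160) and for HSAPN (0.0150), with 177 and 157 genes called. Among the high-fat groups Egr1 differed by less than its spread: -0.28 for HAPN against HFD (95% interval -1.10 to 0.54), 0.06 for HSAPN against HAPN (-0.68 to 0.79) and -0.22 for HSAPN against HFD (-1.04 to 0.60). These intervals leave room for differences of over 0.5 in either direction.

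Egr3, an Egr1 paralog that is itself a target of calcineurin and ERK signalling, was expressed at a lower level with a like order of groups. In FPKM, Egr3 was 1.14, 2.32 and 1.54 in WT, 1.08 and 0.341 in HFD, 0.658, 0.688 and 0.608 in HAPN and 0.758, 0.750 and 0.465 in HSAPN. Egr3 reached 1 FPKM in 4 libraries, those of WT and the HFD library at 1.08 FPKM. It therefore passed the filter of 1 FPKM in 3 libraries only through WT, where it was high. The WT and high-fat libraries did not overlap, though the lowest WT value and the highest high-fat value differed by only 88 against 76 reads. The mean was 2.49-fold lower in the high-fat libraries (log2 -0.66, SE 0.182, limma adjusted p = 0.133). With a pseudocount of 0.1, which weighs low values more, the difference was -1.20 (limma adjusted p = 0.131). Among high-fat groups the log2 differences lay between -0.02 and 0.00105 and changed sign with the settings.

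Nr4a1 had a higher level than Egr1 in every library and a different order of groups. In FPKM, Nr4a1 was 28.3, 42.6 and 23.1 in WT, 15.5 and 8.70 in HFD, 19.2, 13.3 and 37.2 in HAPN and 16.7, 13.0 and 14.5 in HSAPN. HFD and HSAPN lay below all WT libraries, and HAPN overlapped WT through replicate 3, which was higher than WT replicates 1 and 3. Means were 31.3 ± 10.1 FPKM in WT, 12.1 ± 4.81 FPKM in HFD (n = 2), 23.2 ± 12.4 FPKM in HAPN and 14.7 ± 1.86 FPKM in HSAPN (SD, n = 3 in the others). The log2 difference to WT was -1.31 for HFD (SE 0.418, limma adjusted p = 0.300), -1.001 for HSAPN (SE 0.374, 0.176) and -0.50 for HAPN (SE 0.374, 0.409). Over all high-fat libraries it was -0.94 (SE 0.311, limma adjusted p = 0.140; exact permutation p = 0.0303, two-sided, for the same 165 arrangements). Without HAPN replicate 3, WT and high-fat libraries did not overlap in Nr4a1 and the difference was -1.07 (limma adjusted p = 0.168).

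In HAPN replicate 3 Nr4a1 was high while Egr1 was not. The ratio of Nr4a1 to Egr1 FPKM, which no scaling of a library can move, was 6.97 there, against 2.73 to 3.22 in the other HAPN libraries. It was 1.38 to 2.02 in WT, 1.52 to 1.97 in HFD and 2.04 to 2.95 in HSAPN. This library had 2045 reads on Nr4a1 and 375 on Egr1. Nr4a1 was 0.81 higher in HAPN than in HFD on the log2 scale (SE 0.418, limma adjusted p = 0.542) and 0.51 lower in HSAPN than in HAPN (-0.51, SE 0.374, limma adjusted p = 0.980). Without HAPN replicate 3 these differences were 0.42 and -0.12, and that of HAPN to WT was -0.89 in place of -0.50. The difference of HSAPN to HFD was 0.31 (95% interval -0.63 to 1.25).

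**Figure D2:**
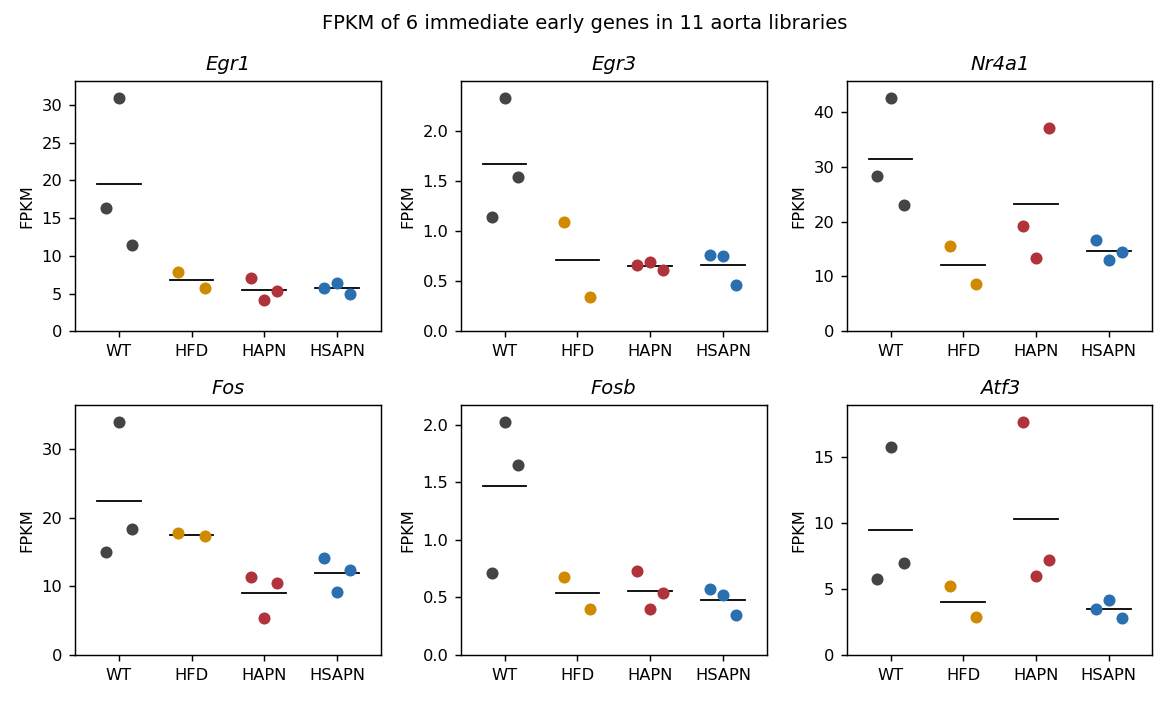
FPKM (y axes, linear from 0) of the 6 immediate early genes in each of the 11 distinct libraries (points, by group on the x axes; replicate order from left to right); horizontal lines are group means. Egr1 and Egr3 have all WT points above all high-fat points, while Nr4a1 has a HAPN library at 37.2 FPKM and Atf3 a HAPN library at 17.6 FPKM.

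Fos, the inducible AP-1 subunit, lay within the WT range in HFD. In FPKM, Fos was 15.1, 34.0 and 18.4 in WT, 17.7 and 17.3 in HFD, 11.3, 5.37 and 10.5 in HAPN and 14.2, 9.16 and 12.4 in HSAPN. HFD lay above all HAPN and HSAPN libraries as well, and HAPN and HSAPN below all WT libraries. The log2 difference to WT was -0.26 for HFD (SE 0.378, limma adjusted p = 0.839), -1.20 for HAPN (SE 0.338, 0.129) and -0.80 for HSAPN (SE 0.338, 0.219). HAPN against HFD was -0.94 (SE 0.378, limma adjusted p = 0.542), beside a median of -0.24 over all tested genes of that comparison. With libraries rescaled by median ratios, which took the median of all genes to -0.01 (a shift of 0.23), the Fos difference was -0.68. The ratio of Fos to Egr1 was 0.919 to 1.61 in WT and 2.25 to 3.02 in HFD, so that the HFD libraries had Egr1 below, and Fos within, the WT range.

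Fosb, a second Fos family member, was above 1 FPKM in 2 libraries only and was below the filter of the test. In FPKM, Fosb was 0.714, 2.02 and 1.65 in WT, 0.675 and 0.395 in HFD, 0.731, 0.396 and 0.541 in HAPN and 0.571, 0.520 and 0.347 in HSAPN. WT replicate 1 lay among the high-fat libraries, and the other WT libraries had more than 2 times the level of any of them. In reads these were 78, 226 and 175 in WT and 36 to 74 in the high-fat libraries. With no filter the log2 difference of the high-fat libraries to WT was -0.66 (SE 0.183, limma adjusted p = 0.155).

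Atf3, which is induced by amino acid, endoplasmic reticulum and other stress, was high in different libraries. In FPKM, Atf3 was 5.73, 15.8 and 6.94 in WT, 5.20 and 2.88 in HFD, 17.6, 5.94 and 7.16 in HAPN and 3.50, 4.18 and 2.77 in HSAPN. All HAPN libraries lay above all HFD and all HSAPN libraries, and HAPN overlapped WT. HSAPN was 2.94-fold lower than HAPN (log2 -1.20, SE 0.438, 95% interval -2.18 to -0.21, limma adjusted p = 0.519) and 2.72-fold lower than WT (log2 -1.12, SE 0.438, 0.193). HAPN was 2.54-fold higher than HFD (log2 1.06, SE 0.490, limma adjusted p = 0.542). In HAPN against HFD limma called 3 genes (0.181% of those tested), and in HSAPN against HAPN 2 genes (0.121%), none of them an immediate early member. Without HAPN replicate 1, the library with the most Atf3, HSAPN against HAPN was -0.76, HAPN against HFD 0.62 and HAPN against WT -0.36 in place of 0.08.

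Of 9 heat shock genes tested, 8 were higher in HAPN than in HFD (1 called by limma) and 9 lower in HSAPN than in HAPN (2 called). In FPKM, the inducible chaperone gene Hspa1b was 5.22, 8.06 and 8.29 in WT, 3.36 and 2.49 in HFD, 91.0, 64.2 and 20.3 in HAPN and 2.57, 2.03 and 2.28 in HSAPN. HAPN replicate 1 was thus the highest library for both genes, while HAPN replicate 2 had a high Hspa1b and an Atf3 level within the range of WT replicates 1 and 3. Hspa1b was higher in HAPN than in HFD (log2 3.69, limma adjusted p = 0.0301), and it was lower in HSAPN than in HAPN (log2 -3.94, limma adjusted p = 0.0144). These calls did not hold throughout: 0 genes were called in HAPN against HFD with only the groups compared, with limma-voom, with the replicate number as a block or without HAPN replicate 2. In HSAPN against HAPN 0 were called with no filter, with only the groups compared, and without HAPN replicate 2 or any 1 of the HSAPN libraries. The ratio of Atf3 to Egr1 was 1.34 to 2.51 in HAPN, and 0.350 to 0.659 in all libraries of the other groups. The part of the heat shock genes in the Atf3 level was not tested.

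**Figure D3:**
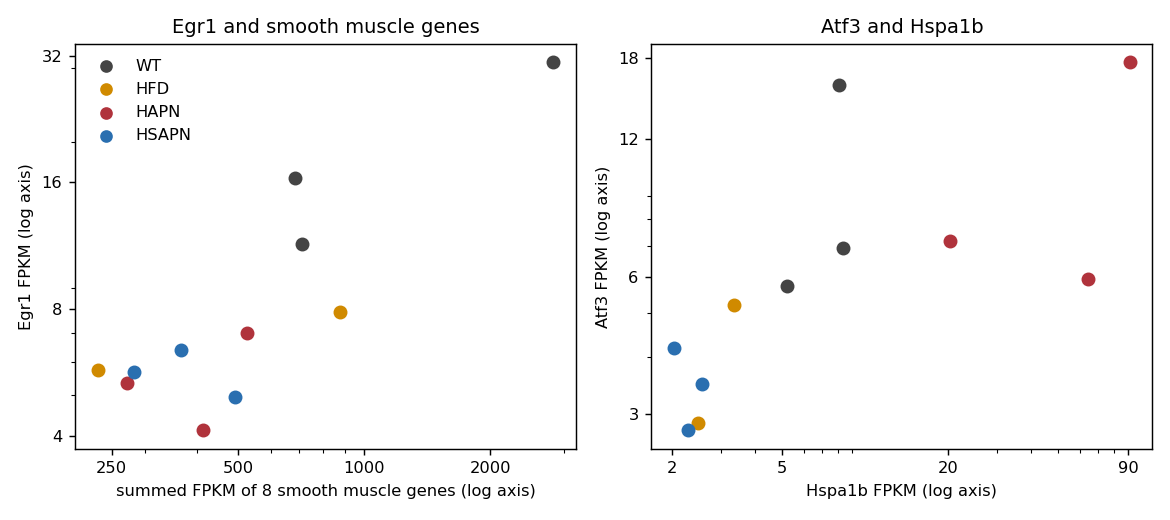
Left, Egr1 FPKM against the summed FPKM of the 8 smooth muscle genes; right, Atf3 FPKM against Hspa1b FPKM; both axes are logarithmic, each point is 1 of the 11 libraries and colours are groups. WT replicate 2 is highest in both measures on the left (30.9 FPKM of Egr1), and HAPN replicate 1 in both on the right (91.0 FPKM of Hspa1b).

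No immediate early member was called by limma in any of the 7 comparisons. At an unadjusted p under 0.05 there were 3 of 5 tested members in HFD against WT (11.4% of all tested genes), 3 in HAPN against WT (22.2%), 5 in HSAPN against WT (21.7%) and 4 in the high-fat libraries against WT (23.6%). Between high-fat groups there was 1 in HAPN against HFD (Fos; 8.62%), 1 in HSAPN against HAPN (Atf3; 7.84%) and 0 in HSAPN against HFD (4.04%), where limma called 0% of tested genes. In the high-fat libraries against WT, 5 of 5 tested members had a log2 difference below 0, where 55.4% of all tested genes did, and their median was -0.75 beside -0.06 over all tested genes. Egr3, 1 of these 5, passed the filter only through WT, where it was high. Its part in the counts against WT was therefore not independent of the filter. The difference lay below 0 for 5 of 5 in HFD against WT (42.4% of tested genes), 4 of 5 in HAPN against WT (62%) and 5 of 5 in HSAPN against WT (57.7%). It lay below 0 for 3 of 5 in HAPN against HFD (75.1%), 2 of 5 in HSAPN against HAPN (46.5%) and 4 of 5 in HSAPN against HFD (72.9%). Median-ratio scaling moved the median of all genes by 0.17 in HAPN against WT, 0.13 in HSAPN against WT, 0.23 in HAPN against HFD and 0.19 in HSAPN against HFD. With it 50.1% of tested genes lay below 0 in HAPN against WT, 51.9% in HAPN against HFD and 49.0% in HSAPN against HFD, and of the members' signs Egr3 changed in each comparison between high-fat groups and Atf3 in HSAPN against HFD. Of the 6 members, of which Fosb was not tested, 2 did not overlap and were lower (Egr1 and Egr3), where 2.29% of tested genes were. Leaving out WT replicate 1 gave 4 members (with Fos and Fosb; 4.4% of tested genes), HAPN replicate 1 gave 3 (with Fosb; 3.68%) and HAPN replicate 3 gave 3 (with Nr4a1; 2.47%). Without WT replicate 3 the members stayed at 2 while 13.7% of tested genes did not overlap and were lower, and leaving out the HFD library that was deposited under 2 replicate numbers took that share to 9.34%. In HFD against WT 5 of 6 were lower without overlap, or 4 of the 5 tested members (7.17% of tested genes). In HAPN against WT 3 of 6 were, or 3 of the 5 tested (20.4%), and in HSAPN against WT 6 of 6, or 5 of 5 (19%). These 3 counts share the WT libraries, and the members were chosen with earlier results of these libraries known. Between high-fat groups, members divided: in HAPN against HFD, Fos was lower and Atf3 higher without overlap (19.8% and 6.51% of tested genes), and in HSAPN against HAPN Atf3 was lower (7.53%). Fos was lower without overlap in HSAPN against HFD (14.2%).

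**Figure D4:**
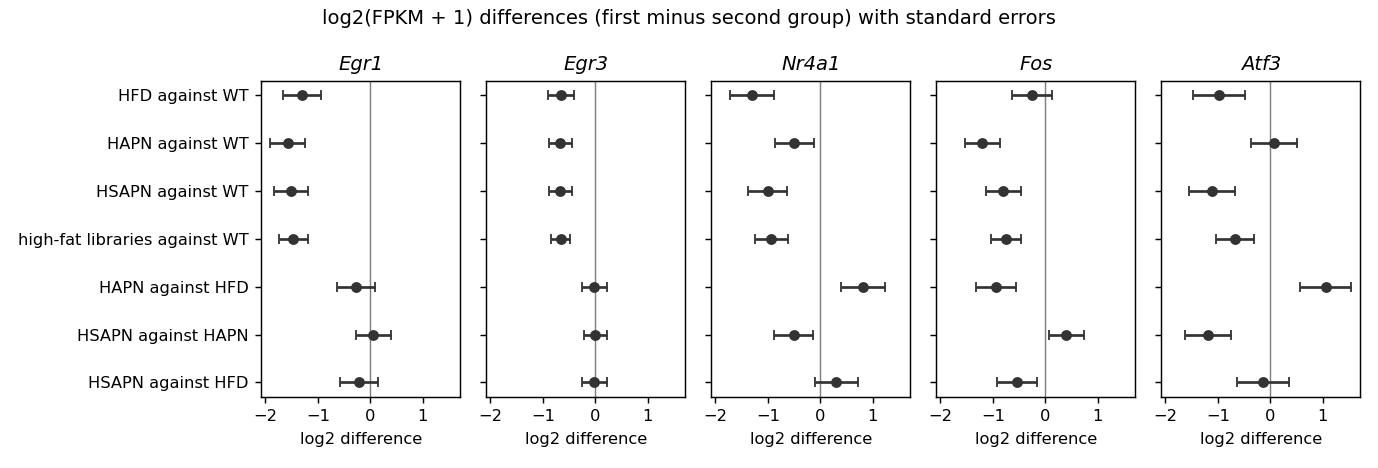
Log2(FPKM + 1) differences of the 5 tested members (panels) in the 7 comparisons (y axis), first group minus second, with standard errors as bars. The differences to WT lie below 0 except that of Atf3 for HAPN (0.08), and those between high-fat groups lie on both sides of 0 for all 5 members, with Atf3 in HSAPN against HFD above 0 under median-ratio scaling.

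WT replicate 2 had the highest level of Egr1, Egr3, Nr4a1, Fos and Fosb of all libraries and the second of Atf3. It also had the highest sum of smooth muscle genes (2831 FPKM, against 686 and 710 FPKM in the other WT libraries) and the most Bpifa1, and its share in the difference was not tested beyond leaving it out. Without it the 5 tested members still had log2 differences below 0, with a median of -0.49, and Egr1 and Egr3 still did not overlap. The smooth muscle sums of WT replicates 1 and 3 lay below that of the library deposited as HFD replicates 1 and 2 (877 FPKM), whose Egr1 was 7.88 FPKM against 16.4 and 11.4 FPKM. All other high-fat libraries had smooth muscle sums below those of all WT libraries, as they had less Egr1. The part of smooth muscle content in the Egr1 difference was not tested. The clock output gene Dbp had 9.30 to 36.7 FPKM in WT, 3.50 and 4.33 FPKM in HFD, 2.36 to 3.79 FPKM in HAPN and 7.92 to 14.5 FPKM in HSAPN. Unlike Egr1, Dbp parted HSAPN from HAPN without overlap, and its part in the Egr1 difference was not tested either.

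Correlations between members were taken within the 8 high-fat libraries, since WT and high-fat libraries lie apart in Egr1. Of 15 pairs of members 12 had a Pearson r of log2(FPKM + 1) above 0, from -0.28 to 0.80, and none passed at a Benjamini-Hochberg adjusted exact permutation p of 0.05 over the 15 pairs. The highest was Egr1 with Fosb (Pearson r = 0.798, exact permutation p = 0.0182, adjusted 0.272; Spearman rho = 0.667, exact p = 0.0831, adjusted 0.397; r = 0.770 without the 2 libraries farthest in Egr1). Egr1 and Nr4a1 had r = 0.0294 (exact permutation p = 0.949, adjusted 0.962; rho = 0.0714, exact p = 0.882, adjusted 0.945; r = -0.11 without the 2 farthest). The 8 libraries come from 3 groups, and 3 WT libraries are too few for a value of their own. On deviations from the group means over all 11 libraries, WT included, r ran from 0.36 to 0.84 over the 15 pairs, given here as a description. It was higher for Egr1 with Nr4a1 (0.585) and lower for Egr1 with Fosb (0.517). Nr4a1 with Fosb (0.361) and with Atf3 (0.358) were lower as well, and the remaining pairs were higher.

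Genes other than the members had the highest correlations with Egr1. Among 1233 named tested genes averaging 1 or more on the log2(FPKM + 1) scale, those with the highest Pearson r to Egr1 over the 11 libraries were Mustn1 (0.962), Aqp2 (0.939), Oxld1 (0.933), Casq1 (0.925) and Tpm2 (0.914). Tpm2 encodes a muscle tropomyosin and Casq1 a calcium-binding protein of skeletal muscle. Mustn1, a gene of the musculoskeletal system, was 79.7 ± 35.5 FPKM in WT (SD, n = 3) and 40.4 ± 4.17 FPKM in the high-fat libraries (SD, n = 8). Egr3 ranked 22nd, Fos 104th, Nr4a1 223rd and Atf3 373rd by r to Egr1 among 1237 genes with the other tested members included. Fosb, which was not tested, was not ranked and had r = 0.852 to Egr1 over the 11 libraries. For Nr4a1 the highest were B4galt2 (0.778), Pth1r (0.761), Mustn1 (0.746), Psrc1 (0.742) and Gdf10 (0.736). These values are descriptions over libraries that share WT replicate 2 as an extreme. On deviations from the group means, which still include WT replicate 2, r to Egr1 was 0.954 for Mustn1 and 0.716 for Aqp2.

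Other primary response genes lay on both sides of 0. Of 55 such genes 16 were in the table and tested, none was called in any comparison, and in the high-fat libraries against WT 10 were higher and 6 lower, with a median of 0.13. The 4 with the greatest differences were Cyr61, Nr4a2, Tnfaip3 and Sgk1. Cyr61, a matricellular gene downstream of YAP and serum response factor, was 77.1 ± 27.0 FPKM in WT and 42.7 ± 13.9 FPKM in the high-fat libraries (log2 -0.80, SE 0.253, limma adjusted p = 0.139), lowest in HAPN (29.3 ± 5.35 FPKM). Nr4a2, a paralog of Nr4a1, was 5.21 ± 1.20 FPKM in WT and 2.73 ± 1.02 FPKM in the high-fat libraries (log2 -0.75, SE 0.241, 0.139). In the other direction, the NF-kappaB feedback gene Tnfaip3 was 2.57 ± 2.02 against 4.50 ± 2.10 FPKM (log2 0.65, limma adjusted p = 0.296) and the kinase gene Sgk1 17.9 ± 10.9 against 25.0 ± 4.56 FPKM (0.62, 0.242). Nr4a3, the third of the family and named after its values were seen, had a log2 difference of -0.26 (SE 0.270).

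**Figure D5:**
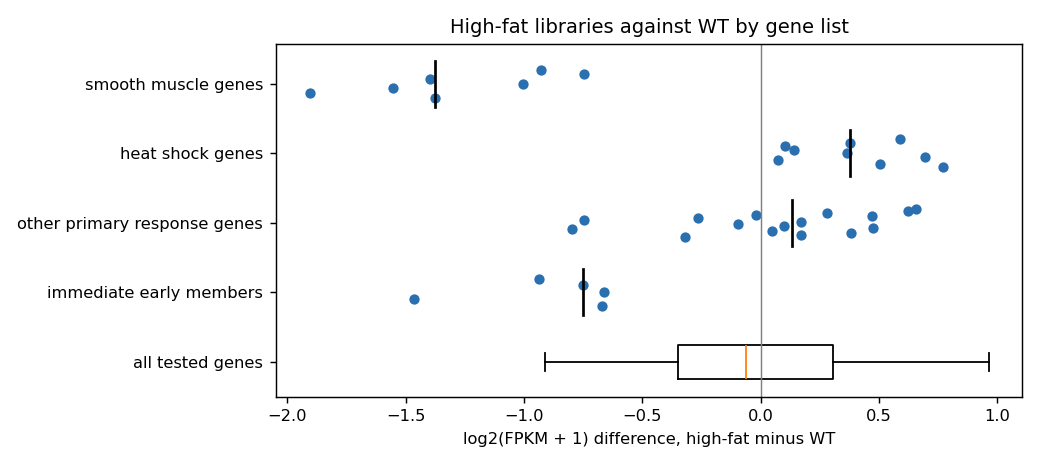
Log2(FPKM + 1) differences between high-fat and WT libraries (x axis) of the tested genes of 4 lists (points; vertical marks are medians) above all 1659 tested genes (box with median and quartiles, whiskers from the 5th to the 95th percentile). The members have a median of -0.75 and smooth muscle genes of -1.38, while other primary response genes (0.13) and heat shock genes (0.38) have medians above 0.

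Upstream and downstream genes were few in the table. Of 40 regulators of ERK signalling and immediate early transcription 3 were present and none was called. Dusp1, a phosphatase that switches off MAP kinases and is itself an immediate early gene, was 68.0 ± 29.5 FPKM in WT and 58.8 ± 22.1 FPKM in the high-fat libraries (log2 -0.11, SE 0.326). Dusp10 differed by 0.11 and Mef2c, a factor that binds the Nr4a1 promoter in other cells, by 0.02. Of 20 vascular EGR1 targets 2 were present, Pdgfc below the filter. Cdkn1a, a cell cycle inhibitor, was 28.4 ± 16.9 FPKM in WT and 50.5 ± 15.4 FPKM in the high-fat libraries (log2 0.88, SE 0.329, limma adjusted p = 0.169), with overlapping groups.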

How the data were processed

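Aorta RNA was extracted with TRIzol and made into directional mRNA libraries, per the labels' protocols. The deposited values are FPKM per gene symbol, and the authors' normalization to FPKM precedes everything here. Per the submitters' processing notes, the build was GRCm38 and the tools included DESeq 1.8.3 and featureCounts 1.5.0-p3, whose roles are unstated; the aligner, the annotation release and whether counting used strand were not found in those sources. Samples were grouped by title. Read as FPKM on GENCODE M21 exonic lengths, low values (20 reads or fewer) came to whole reads within 0.1 in 95.7 to 97.1% of cases, which gave the depths. The table holds 12.0 to 17.6% of a library's reads, and its rule for choosing genes is not stated. The 1 symbol listed more than once was left out.

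Limma 3.58.1 (limma-trend, R 4.3.3) was fitted to log2(FPKM + 1) of 1659 genes in 1 model of 4 group means with 7 residual degrees of freedom. Fold changes of low genes are understated on this scale. Folds in the text are ratios of mean FPKM. The limma code was tested on simulated data. Python 3.11.15 with SciPy 1.17.1 gave permutation tests. Alternatives were pseudocount, filter, scaling, groups fitted, replicate block, libraries left out and limma-voom on recovered reads. The members and gene lists were chosen with earlier results of these data known. The genes named were all members, the 5 genes most like Egr1 and Nr4a1 by Pearson r, and of 3 lists the 4 genes with the greatest difference to WT and a mean log2(FPKM + 1) of at least 1, besides Hspa1a, Hspa1b, Dnajb1 and Dbp; not all are described.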

Additional observations from a re-analysis of the deposited data

Results flagged for a closer look

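Among the 8 high-fat libraries, 2 values stood far from the others of their gene by Dixon's criterion on FPKM. Chance meets this criterion in about 1 in 20 groups for a single gene, and all 6 members were screened at both ends. Whether the 2 values meet it on log2(FPKM + 1), the scale of the other tests, was not tested. Nr4a1 was 37.2 FPKM in HAPN replicate 3, with the next high-fat library at 19.2 FPKM (gap over range 0.632, critical value 0.526). Atf3 was 17.6 FPKM in HAPN replicate 1, with the next at 7.16 FPKM (0.704). The 2 values are in different libraries, and the 8 libraries come from 3 groups.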

How the results depend on the processing

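The 35 results of 5 tested members in 7 comparisons were recomputed under 458 alternatives in all: 429 kept direction and side of the threshold, 25 changed sign and 4, all of Egr1 against WT, passed the threshold. The threshold was crossed with the high-fat libraries as 1 group (Egr1 -1.49) and without WT replicate 3. Leaving out 1 library at a time gave Egr1 -1.77 to -1.09 and Nr4a1 -1.13 to -0.70 in the high-fat libraries against WT. The limma adjusted p of Egr1 ran from 0.00923 to 0.510 over its alternatives and that of Nr4a1 from 0.0667 to 0.535. Sign changes came in small differences, none of them called, and the cause was not tested.

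For Egr3 between high-fat groups, the pseudocount of 0.1, median-ratio scaling and limma-voom on recovered reads gave 0.054, 0.12 and 0.10 in HAPN against HFD. They gave -0.012, -0.017 and -0.016 in HSAPN against HAPN and 0.042, 0.11 and 0.089 in HSAPN against HFD. Atf3 in HSAPN against HFD was 0.053 with scaling. Leaving out 1 library gave, against WT, Fos in HFD -0.49 to 0.070 and Atf3 in HAPN -0.36 to 0.48. Between high-fat groups it gave Egr3 -0.34 to 0.30 in HAPN against HFD and in HSAPN against HFD, and Egr3 -0.044 to 0.088 and Egr1 -0.10 to 0.22 in HSAPN against HAPN. In HSAPN against HFD it gave Nr4a1 -0.076 to 0.69 and Atf3 -0.48 to 0.20.

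The number of genes called was small and unstable. In the high-fat libraries against WT (1 gene) it was 0 with a pseudocount of 0.1, 3 with no filter, 0 at a minimum of 5 FPKM, 0 with scaling and 5 as 1 group. In HFD against WT (0) it was 2 with no filter. In HAPN against WT (0) it was 2 with no filter, 6 at 5 FPKM and 17 with scaling. In HAPN against HFD (3) it was 0 with only the groups compared, 5 with scaling and 0 with limma-voom. In HSAPN against HAPN (2) it was 0 with no filter, 0 with only the groups compared and 1 with limma-voom. In HSAPN against HFD (0) it was 2 with no filter and 1 with only the groups compared. Leaving out 1 library gave 0 to 28 genes in HFD against WT, 0 to 177 in HAPN against WT, 0 to 157 in HSAPN against WT and 0 to 244 in the high-fat libraries against WT, with the most in each without WT replicate 3. It gave 0 to 6 in HAPN against HFD, 0 to 3 in HSAPN against HAPN and 0 to 3 in HSAPN against HFD.

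With the replicate number as a block, Egr1 was -1.43 (limma adjusted p = 0.167) and Nr4a1 -0.95 (0.210) in the high-fat libraries against WT. The replicate block called 1 gene in HAPN against WT and 0 in HAPN against HFD. Same-numbered libraries did not deviate together, with correlations from -0.59 to 0.50 across genes, so the numbers were not taken as pairs. Depth limits Egr3 most among the tested members, with 25 to 183 reads per library.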
